A study of Mus musculus with 6 samples.

Results

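Selectins, their ligands and the adhesion molecules of blood vessel walls were examined in mouse liver through 9 genes: the selectins Sele and Selp, the ligands Selplg and Glycam1, and the immunoglobulin-family molecules Madcam1, Vcam1, Icam1, Icam2 and Pecam1. The genes were chosen by name, and all 9 were measured, each by 1 probe set, among 908 named genes and 1246 probe sets on an array made for glycan-related genes. Liver RNA came from 3 wildtype male mice labelled healthy and 3 male mice with insulin-deficient diabetes, with 1 sample per array. The sources used here give no strain, no age and no account of how diabetes was produced. They also leave unsaid whether each array stands for its own animal; were animals shared, the p-values would reflect sample spread that may be technical. Values are log2 expression values made by the authors with RMA, a method that corrects background, scales the arrays to each other and joins the probes of a probe set. The number of arrays limits the precision.

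Leukocytes leave the blood by first rolling along the vessel wall and then stopping on it. Selectins are lectins that catch sialylated and fucosylated glycans, such as sialyl Lewis x, carried by mucin-like ligands on passing cells. Firm arrest follows through integrins that bind the immunoglobulin-family molecules. In liver sinusoids, whose lining differs from that of other vessels, rolling on selectins is known to matter less than in venules. Inflammatory cytokines are known to raise Sele, Vcam1 and Icam1 in endothelium through the transcription factor NF-kappa B.

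The stretches just before the RefSeq start sites of 4 members are shown because kappa B-type letters occur in them, while their genes lay at very different heights on these arrays. Of the 9 genes, 5 had an entry in the RefSeq promoter table of GRCm38.p6, and Selplg, Vcam1, Icam2 and Pecam1 did not. Each run below holds the 160 bases upstream of the start, 5′ to 3′, with capitals where the letters GGAANNNCC occur on either strand.
Sele, chr1:164048074-164048233, plus strand: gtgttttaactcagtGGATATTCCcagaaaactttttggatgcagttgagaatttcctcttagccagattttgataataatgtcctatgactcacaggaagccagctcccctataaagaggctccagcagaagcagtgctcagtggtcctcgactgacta
Icam1, chr9:21015780-21015939, plus strand: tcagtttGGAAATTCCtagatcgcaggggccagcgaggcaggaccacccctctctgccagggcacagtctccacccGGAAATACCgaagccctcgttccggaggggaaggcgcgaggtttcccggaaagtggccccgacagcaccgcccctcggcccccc
Madcam1, chr10:79664399-79664558, plus strand: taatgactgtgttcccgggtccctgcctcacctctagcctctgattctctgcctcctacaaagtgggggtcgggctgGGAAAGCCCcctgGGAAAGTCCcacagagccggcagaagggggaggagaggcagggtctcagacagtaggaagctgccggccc
Selp, chr1:164115104-164115263, plus strand: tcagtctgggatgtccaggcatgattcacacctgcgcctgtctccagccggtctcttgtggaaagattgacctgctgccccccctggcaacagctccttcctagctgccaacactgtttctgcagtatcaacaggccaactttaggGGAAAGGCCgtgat

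These letters were found in 10.9% of the 32851 promoters of the table over the same window, so a match alone is common. The Sele match began 145 bases before the start site and lay on the minus strand. Icam1 held a match at 153 bases, which reads as one on both strands, and another at 84. Madcam1 held 2 close together, at 83 and 70 bases. At least 2 such places were found in 0.72% of all windows. The Selp match, at 14 bases, lay next to the start. The Glycam1 window held none. The letters were chosen after these windows had been read, and a match is not a measured binding site.

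The 9 probe sets lay at 3 heights. Icam1, Selp, Pecam1, Selplg, Madcam1 and Icam2 read above the median probe set on all 6 arrays, with means over the arrays of 6.64, 5.92, 5.90, 5.79, 5.57 and 5.53. Vcam1 and Glycam1 read below it, at 3.83 and 3.74. Sele, the gene of E-selectin, had the lowest value of the 9 on 6 of 6 arrays, between 2.53 and 2.83, where the lowest value in the whole table was 2.03. By mean, Icam1 lay at the 73.1 percentile of all probe sets and Sele at the 4.74 percentile. Probes differ in how strongly they bind, so this order is one of probe set values and not of transcript amounts. Neighbours such as Selp and Pecam1, or Madcam1 and Icam2, overlapped in their values. The labelled tissue matched its markers, since all 6 measured hepatocyte genes read above the median probe set.

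**Figure D1:**
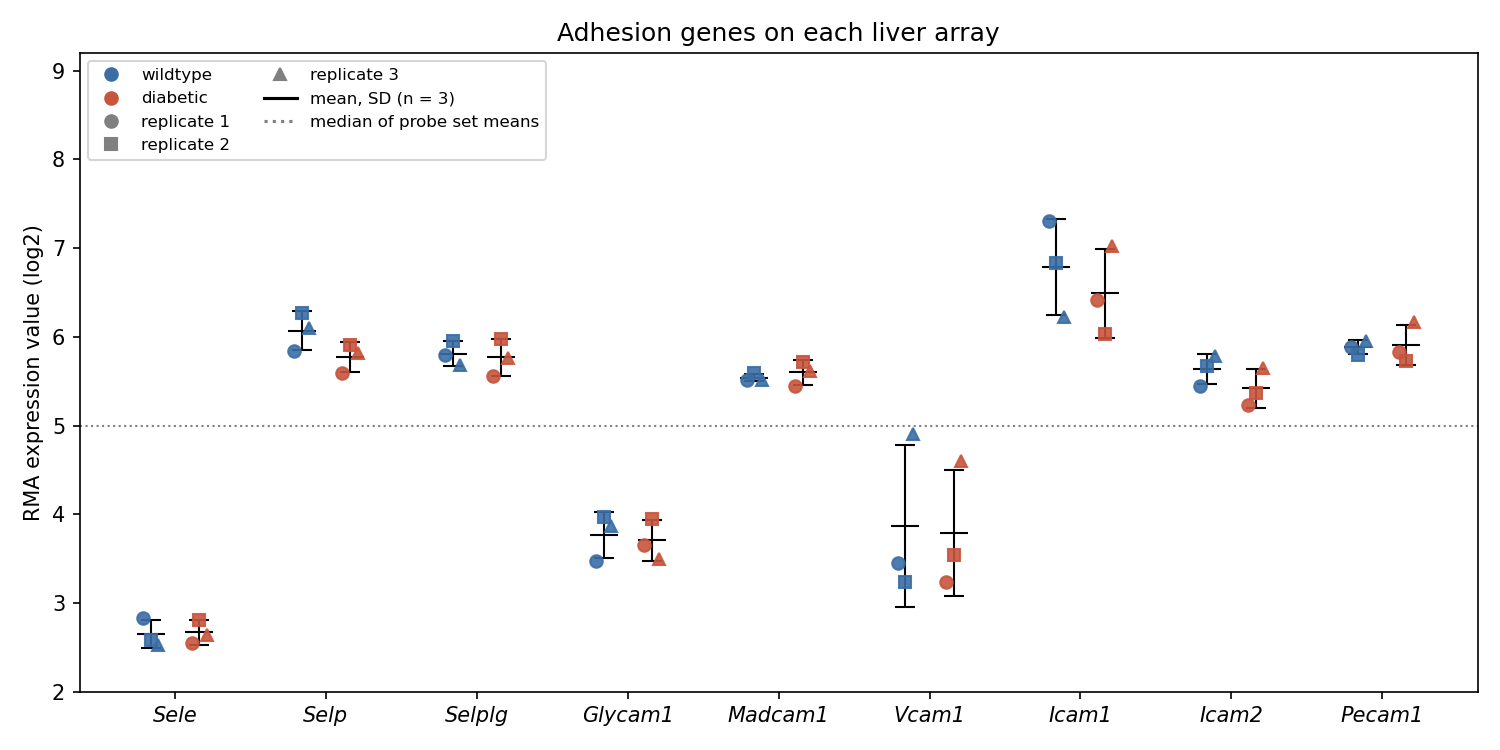
RMA expression values (log2, vertical axis) of the 9 adhesion genes on the 3 wildtype and 3 diabetic arrays, with bars for the group mean and SD; symbols give the replicate number and the dotted line is the median of all probe set means. The groups overlapped for every gene, Sele lay lowest, and both Vcam1 values of the arrays numbered 3 stood above the others.

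Diabetic and wildtype livers were compared first. None of the 9 genes passed the test: limma called 0 of 9 at an adjusted p under 0.05, where it called 0.321% of all probe sets (4 of 1246). At an unadjusted p under 0.05 there were also 0 of 9, against 2.97% of all probe sets. In no member did the groups separate completely, while 7.87% of all probe sets did. The diabetic mean was lower for 6 genes and higher for 3, with a median difference of -0.07 on the log2 scale, and 49.6% of all named genes had a lower mean. The median size of a difference was 0.07 for the 9 genes and 0.09 for all named genes. Values here are from bulk liver, in which fewer cells of a type and less RNA per cell cannot be told apart.

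Selp, the gene of P-selectin, which endothelium and platelets store in granules and bring to the surface when activated, had the smallest p of the 9. It read 5.84, 6.27 and 6.10 on wildtype arrays 1 to 3 and 5.59, 5.91 and 5.82 on diabetic arrays 1 to 3. The groups overlapped, because wildtype 1 lay between diabetic 3 and diabetic 2. The means were 6.07 ± 0.22 and 5.77 ± 0.17 (SD, n = 3), a difference of -0.30 (SE 0.14, 95% confidence interval -0.64 to 0.04) or a ratio of 0.814. This difference ranked 69 of 1246 by p and did not pass (limma adjusted p = 0.928). Within each replicate number the diabetic array was lower, by -0.25, -0.36 and -0.29. With the replicate number as a block the interval was -0.50 to -0.10, and limma's adjusted p was 0.822. Without wildtype 2 the difference was -0.20. The platelet markers Pf4 and Ppbp differed by 0.07 and 0.09 (SE 0.08 for each), both in the other direction, and neither passed. Ppbp read low, at the 15.5 percentile of all probe sets. The part of platelets in the Selp values was not tested.

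Sele, which endothelium makes on cytokine stimulation, read 2.83, 2.59 and 2.53 on the wildtype arrays and 2.55, 2.81 and 2.64 on the diabetic ones. The values interleaved, with wildtype 1 and diabetic 2 highest. The difference was 0.02 (interval -0.26 to 0.30, limma adjusted p = 0.99), and the sign turned under quantile normalization. At so low a reading a probe set can be at background, so the narrow interval does not bound the transcript.

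Both ligands gave differences near 0. Selplg encodes PSGL-1, the leukocyte mucin that binds P-selectin, and read 5.80, 5.96 and 5.68 in wildtype and 5.56, 5.98 and 5.76 in diabetic liver. Its difference was -0.05 (interval -0.37 to 0.27). Glycam1, a secreted mucin-like selectin ligand known from lymph node vessels and milk, read 3.48, 3.97 and 3.87 against 3.66, 3.95 and 3.50, with a difference of -0.07 (interval -0.48 to 0.35). The suffix of the Glycam1 probe set, which that of Icam2 also carries, marks probes shared by several transcripts. For both ligands the arrays numbered 2 gave the highest value in each group.

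Madcam1, the gut addressin bound by the integrin alpha4 beta7, varied least of the 9. It read 5.52, 5.59 and 5.51 in wildtype and 5.45, 5.72 and 5.62 in diabetic liver. Its difference was 0.06 (interval -0.17 to 0.28), and its residual SD of 0.10 lay at the 30.2 percentile of all probe sets. Pecam1, the junctional molecule CD31 of endothelium and platelets, read 5.89, 5.80 and 5.96 against 5.83, 5.73 and 6.17. Diabetic 3 was its highest array, and the difference was 0.02 (interval -0.29 to 0.33). Without diabetic 3 it was -0.10.

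Icam2, which endothelium carries without stimulation and which binds the leukocyte integrin LFA-1, read 5.45, 5.67 and 5.79 in wildtype and 5.23, 5.37 and 5.65 in diabetic liver. The difference was -0.22 (SE 0.14, interval -0.56 to 0.12), a ratio of 0.858 (limma adjusted p = 0.928). As with Selp, the diabetic array was lower within all 3 numbers, by -0.22, -0.31 and -0.14. Selp and Icam2 were the 2 of 9 genes with this pattern, which 11.6% of all probe sets shared; the opposite, higher within all 3 numbers, held for 0 of 9 members and 14.3% of all probe sets. In the fit with the replicate block Selp and Icam2 were the 2 of 9 with an unadjusted p under 0.05, where 4.33% of all probe sets had one. Limma gave 0.0143 for Selp and 0.0449 for Icam2. The block fit rests on the same 3 differences within numbers, so these p-values are not a second observation. That fit called 0 of 9 members and 0.0% of all probe sets. The Icam2 difference was -0.34 without diabetic 3 and -0.13 without diabetic 1.

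Clec4g, a lectin of sinusoidal endothelium, read 8.34, 8.72 and 9.05 in wildtype and 8.23, 8.17 and 8.96 in diabetic liver. Its difference was -0.25 (limma adjusted p = 0.942). The mean over the 4 measured endothelial markers, of which Pecam1 is one, ran from 5.92 to 6.15 in wildtype and from 5.82 to 6.28 in diabetic liver. Of these 4, 3 read above the median probe set and Cd34 did not, at 4.06 and 4.21. Their part in the Selp and Icam2 values was not tested.

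Icam1, the cytokine-induced ligand of LFA-1 and Mac-1, which hepatocytes and Kupffer cells also express, spread widely within both groups. It read 7.31, 6.83 and 6.23 on wildtype arrays 1 to 3 and 6.42, 6.03 and 7.03 on diabetic arrays 1 to 3. Wildtype 1 was the highest and diabetic 2 the lowest array, and diabetic 3 lay above wildtype 2 and 3. The means were 6.79 ± 0.54 and 6.49 ± 0.50 (SD, n = 3), a difference of -0.30 with an interval of -1.12 to 0.53 (limma adjusted p = 0.96). Within the replicate numbers it was -0.88, -0.80 and 0.80. Without wildtype 1 it was -0.04, and without wildtype 3 it was -0.57. The Icam1 residual SD of 0.52 lay at the 96.1 percentile.

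Vcam1, the ligand of the integrin alpha4 beta1, showed the widest spread of the 9, at the 98.9 percentile (residual SD 0.82). It read 3.45, 3.24 and 4.91 in wildtype and 3.24, 3.54 and 4.60 in diabetic liver. The difference between the groups was -0.07, with an interval of -1.35 to 1.20 that corresponds to ratios from 0.392 to 2.31 (limma adjusted p = 0.99). With the replicate block the interval narrowed to -0.48 to 0.33. Leaving out wildtype 3 gave 0.45, and leaving out diabetic 3 gave -0.48.

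**Figure D2:**
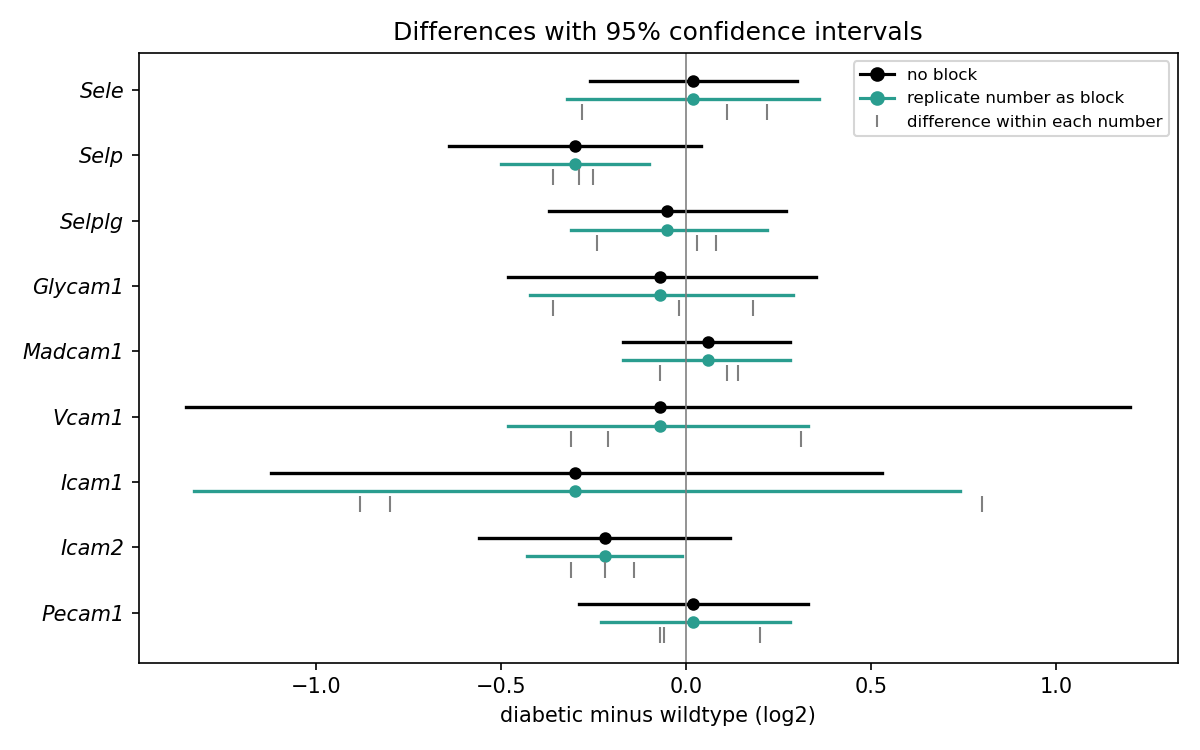
Diabetic minus wildtype difference (log2, horizontal axis) of each gene with its 95% confidence interval from limma without a block (black) and with the replicate number as a block (green), and the difference within each number (grey marks). Selp and Icam2 have all grey marks below 0, Icam1 has marks at both ends, and the Vcam1 interval is much shorter with the block.

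These intervals set what the arrays could show. For 7 of 9 genes the interval without the block excluded a change of 1 on the log2 scale, which is 2-fold, in both directions, and Vcam1 and Icam1 were the exceptions. Also without the block, a change of 0.5, or 1.41-fold, was excluded in both directions for 5 of 9. With the block the Vcam1 interval was -0.48 to 0.33, while the Icam1 interval was wider, at -1.33 to 0.74. As Sele and Glycam1 read low, their intervals may be narrow for lack of signal, and the low Vcam1 values may likewise be near background.

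Arrays that share a replicate number were compared next, across the groups. Vcam1 was the member with the largest such pattern. Its mean was 4.75 on the arrays numbered 3 and 3.37 on the other 4, a difference of 1.39, while those 4 spanned 0.31. Those 4 values were low and not shown to lie above background, so no fold is given. The lower of the number 3 arrays exceeded the highest of the others by 1.05. By that gap Vcam1 ranked 2 among the 78 probe sets, 6.26% of all, that were higher on both arrays numbered 3 than on any other array. For numbers 1 and 2 the shares higher on both arrays were 7.54% and 7.22%. The shares lower on both arrays than on any other were 12.0%, 3.77% and 7.46% for numbers 1, 2 and 3. Gaps of at least 1 were not particular to number 3. They were found upward for 2, 0 and 2 probe sets on numbers 1, 2 and 3, and downward for 1, 0 and 0. What a number common to both groups means is not stated in the labels.

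Among the probe sets higher on both arrays numbered 3, the largest gap belonged to the neutrophil-attracting chemokine Cxcl1. It read 8.13 on wildtype 3 and 8.94 on diabetic 3, with 5.23 to 6.02 elsewhere. After Vcam1 came Igfbp7, which vessels secrete, at 9.27 and 9.13 against 7.89 to 8.32, and the B cell chemokine Cxcl13, at 5.07 and 6.37 against 4.10 to 4.27. Clec1b, the lectin CLEC-2 of platelets and liver sinusoids, and the myeloid receptors Adgre4 and Clec4a3 completed the 7 probe sets with a gap of at least 0.5. These genes were picked for their values. Pecam1 was the 1 other member higher on both arrays numbered 3 than elsewhere, by 0.07. On the arrays numbered 3, Sele read 2.53 and 2.64, and Icam1 read 6.23 and 7.03, the lowest wildtype and the highest diabetic value.

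**Figure D3:**
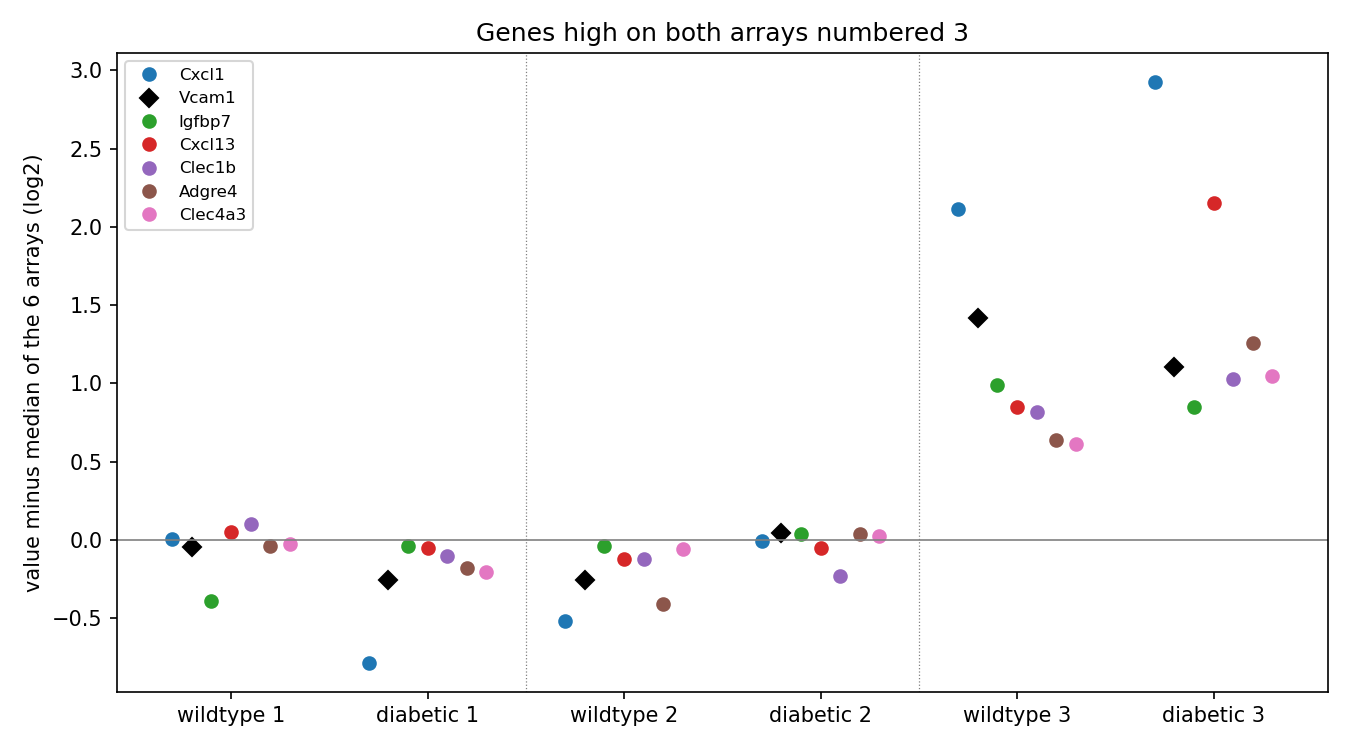
Values of the 7 genes with the largest gap between the arrays numbered 3 and all others, each minus its median over the 6 arrays (log2, vertical axis), by array. Vcam1 (black diamonds) stands above its other values on wildtype 3 and diabetic 3, as do the other 6, which were selected for this.

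Smaller patterns of the same kind occurred among the members, some by narrow margins. Madcam1, for one, read 5.59 on wildtype 2 and 5.52 on wildtype 1. Vcam1, Icam2 and Pecam1, 3 of 9, had their highest value in each group on the arrays numbered 3, where 10.5% of all probe sets did. Selp, Selplg, Glycam1 and Madcam1, 4 of 9, had it on the arrays numbered 2, where 13.7% of all probe sets did. Selp and Icam2 were lowest in each group on the arrays numbered 1, which 18.9% of all probe sets were. Pecam1 was lowest in each group on the arrays numbered 2 (7.78% of all probe sets). On number 1, 0 of 9 were highest in each group (12.8% of all probe sets). On number 3, 0 of 9 were lowest in each group (11.9%). Over the 9 genes, deviations from the group means correlated at 0.542, 0.518 and 0.448 for the arrays numbered 1, 2 and 3. Over all probe sets these were 0.397, 0.138 and 0.162. Without Vcam1 the 3 values over the members were 0.274, 0.479 and -0.572, so for number 3 the agreement rested on Vcam1. Genes on an array share its RNA and its scaling and are not independent.

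Most of the measured macrophage markers were also highest on the number 3 arrays. Of 7, Adgre1, Csf1r, Cd74, Mrc1 and Siglec1 were highest there in each group, as 10.5% of all probe sets were. The Kupffer cell markers Clec4f and Timd4 were not highest there in each group. Clec4f read 6.05, 5.81 and 5.91 in wildtype and 5.71, 6.07 and 6.03 in diabetic liver. Timd4, low at the 18.3 percentile of all probe sets, read 3.65, 3.46 and 3.57 in wildtype. In diabetic liver Timd4 read 3.41, 3.29 and 3.89, so diabetic 3 was its highest array. The mean over the 7 was 5.80 on wildtype 3 and 6.01 on diabetic 3, and 5.28 to 5.44 elsewhere. Of 4 endothelial markers, Pecam1, Cd34 and Clec4g were highest there in each group (10.5% of all probe sets). Emcn was split: its lowest wildtype array was wildtype 3, at 5.35, and its highest of all 6 was diabetic 3, at 5.63. Of 4 stellate cell markers, Dcn and Bgn were highest there in each group (10.5% of all probe sets). Pdgfrb was highest of all 6 arrays on wildtype 3, at 6.03, but read 5.17 on diabetic 3 and 5.30 on diabetic 2. Lum was highest on wildtype 1, at 3.62. The part of these cells in the Vcam1 values was not tested.

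Genes most like each member over the 6 arrays were sought among 508 genes above the median level, by Pearson's r. A search this wide over 6 arrays yields high values for most genes, so they are a description. Vcam1 was most like Bgn, the proteoglycan biglycan (r = 0.971, Spearman's rho = 0.829), and the growth factor gene Bmp7 (r = 0.963, rho = 1). Without wildtype 3 and diabetic 3, r was 0.707 for Bgn and 0.886 for Bmp7. Pecam1 was most like the macrophage receptor gene Csf1r (r = 0.962, rho = 0.829) and Clec1b (r = 0.936, rho = 1). Icam2 was most like the macrophage growth factor gene Csf1 (r = 0.940) and Clec4g (r = 0.934).

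Selp was most like Muc13, a cell surface mucin (r = 0.937), and Inhbe, an activin subunit made by hepatocytes (r = 0.934). Icam1 was most like Lman2l, a lectin of the secretory pathway (r = 0.966), and the activin receptor Acvr2a (r = 0.964). Selplg was most like Ctsa (r = 0.918) and Flt3 (r = 0.911), Madcam1 like Gfpt2 (r = 0.973) and Bcan (r = 0.928), Glycam1 like Mgat5 (r = 0.933) and Mrc2 (r = 0.905), and Sele like Il17b (r = 0.894) and Gnpda2 (r = 0.870). Many of these spanned little: Gfpt2 ranged over 0.29 and Il17b over 0.33 on the log2 scale. Among the members themselves the highest r was 0.821, for Selplg and Madcam1, followed by 0.762 for Selp and Icam2 and 0.752 for Vcam1 and Pecam1. The lowest was -0.71, for Glycam1 and Icam1.

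The rest of the pathway was read through 3 gene lists. All 18 enzymes and transporters that build sialyl Lewis x and related selectin ligands were measured, and 0 passed, with 12 lower and 6 higher means and a median difference of -0.07, where that of all named genes was 0.00. Slc35c1, which carries GDP-fucose into the Golgi, differed by -0.38 (interval -0.97 to 0.22), with wildtype 1 at 8.50 and the other arrays between 7.48 and 7.89. B4galt1, which makes the lactosamine core, differed by -0.35 (interval -0.85 to 0.15), and diabetic 3, at 9.51, lay among the wildtype arrays. The sialyltransferase St3gal3 differed by -0.24 and the mucin-type O-glycan initiator Galnt1 by 0.21. Fut7, the leukocyte fucosyltransferase that completes sialyl Lewis x, read 5.55, 5.74 and 5.62 in wildtype and 5.71, 5.87 and 5.62 in diabetic liver, a difference of 0.10. Limma's adjusted p was at least 0.928 for each of these 5.

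**Figure D4:**
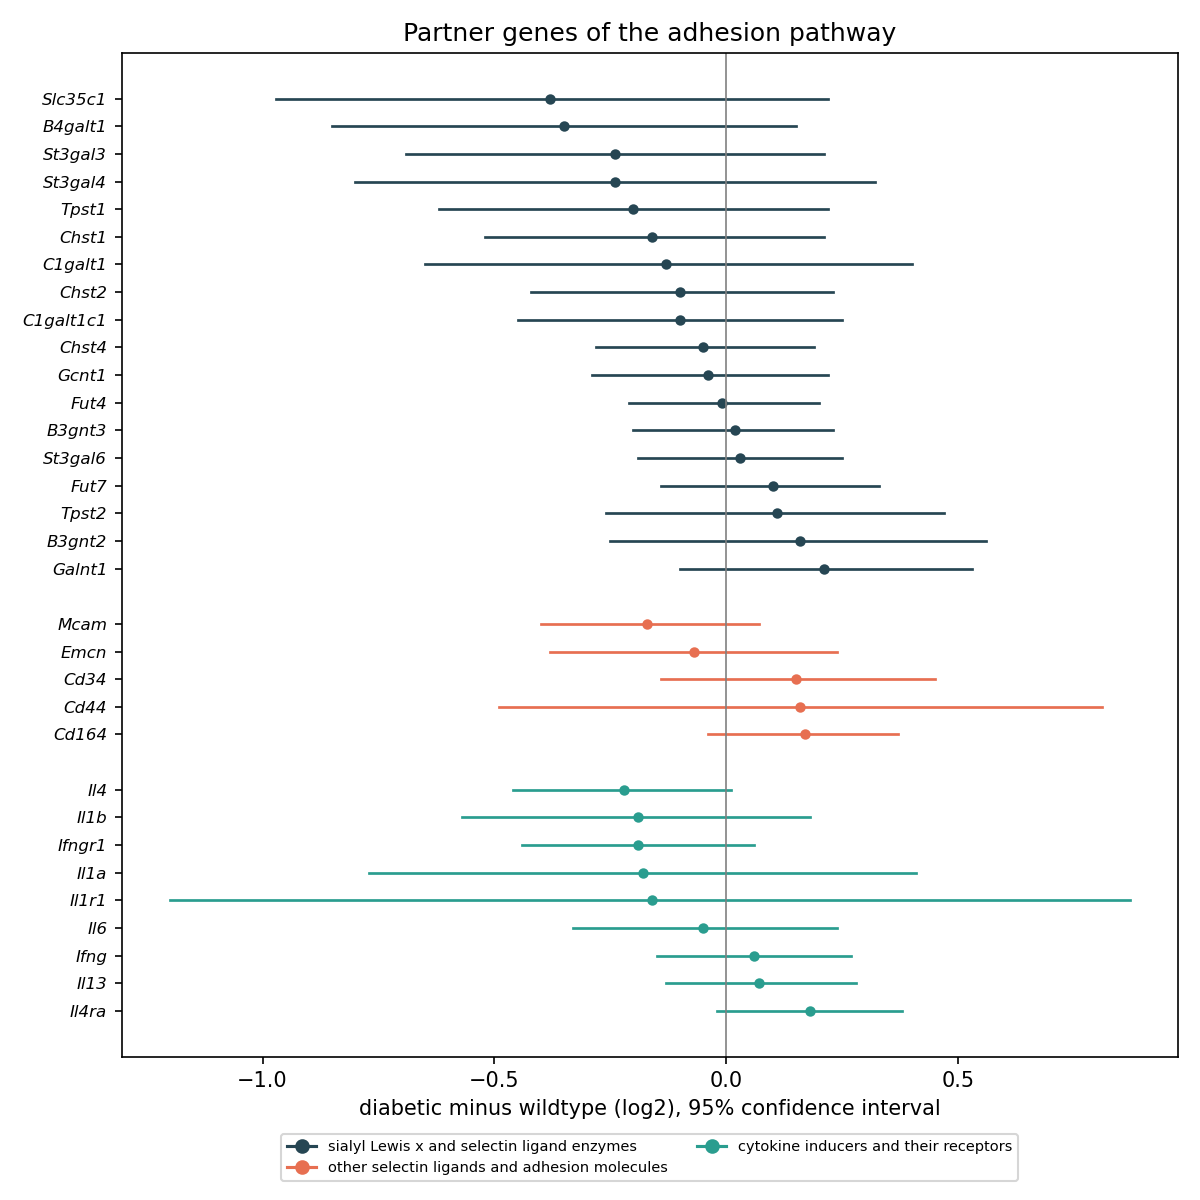
Diabetic minus wildtype differences (log2, horizontal axis) with 95% confidence intervals from limma for the measured genes of the 3 lists, in colours by list and ordered within each. Every interval includes 0; Il1r1, Slc35c1 and Cd44 have among the widest.

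The integrins that bind these molecules were not analysed here. Among other selectin ligands and adhesion molecules 5 of 21 were measured and 0 passed, with 3 higher and 2 lower. Cd164, a sialomucin, differed by 0.17, with all diabetic arrays above all wildtype ones. Such a lack of overlap, in either direction, held for 7.87% of all probe sets. Mcam, an endothelial adhesion molecule, differed by -0.17. Cd34, which carries selectin ligands in some vessels, differed by 0.15, and the hyaluronan receptor gene Cd44 by 0.16. Diabetic 3 was the highest Cd44 array, at 4.32 against 3.33 to 3.60.

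Of the cytokines known to act on endothelium, and their receptors, 9 of 18 were measured and 0 passed, with 6 lower and 3 higher means and a median difference of -0.16. Il4 differed by -0.22 (interval -0.46 to 0.01) and its receptor chain Il4ra by 0.18. The groups did not overlap for Il4ra, as for 7.87% of all probe sets. Il1b, an inducer of Sele, Vcam1 and Icam1, read 5.79, 5.99 and 6.36 in wildtype and 5.82, 5.77 and 5.97 in diabetic liver, a difference of -0.19 (interval -0.57 to 0.18). Its highest array in each group was the one numbered 3, as for Il1a and Ifngr1 (3 of 9) and for 10.5% of all probe sets. Ifngr1 differed by -0.19. Tnf was not analysed here.

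Blood cell markers were few and lay on both sides of the median probe set. The mean over 4 lymphocyte markers lay between 3.88 and 3.99 in wildtype and between 3.93 and 4.04 in diabetic liver, and 1 of the 4, Cd22, read above the median probe set. Cd69 lay near the bottom of the table, at 2.43 to 2.46 in wildtype and 2.52 to 2.70 in diabetic liver, a difference of 0.19 that did not pass. Neutrophils were covered by Cxcr2 alone, which differed by -0.29, with wildtype 2 at 5.98 against 5.02 to 5.38 on the other arrays. Another Cxcr2 probe set read far lower, with a mean of 2.98 and a difference of -0.34, so the height of Cxcr2 is uncertain. The mean over 4 stellate cell markers ran from 5.45 to 6.16 in wildtype and from 5.48 to 5.79 in diabetic liver. Among these, Pdgfrb differed by -0.38. Of the 6 hepatocyte markers 1 passed, Mbl2, where 0.321% of all probe sets did, with a difference of 1.03 (limma adjusted p = 0.0412; 0 called with the replicate block). Igfals differed by -0.61 (interval -1.04 to -0.18) with no overlap of the groups, as for 7.87% of all probe sets. Mbl1 differed by 0.27, and neither Igfals nor Mbl1 passed (limma adjusted p = 0.928 for both). Muc1, the single epithelial mucin listed, differed by 0.02.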

How the data were processed

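The authors made the deposited log2 values with RMA, per the submitters' processing notes, and its version is not given in the sources used here. This scale was inferred from the range of 2.03 to 13.45 and array medians of 4.93 to 5.06. No detection calls were used. Of 1246 probe sets, 984 carry a RefSeq accession and 962 were named through a RefSeq gene table (GRCm38.p6). In R 4.3.3, limma 3.58.1 fitted all probe sets together by lmFit and eBayes; p-values were adjusted by Benjamini-Hochberg over all of them, at a threshold of 0.05. In the main fit, without a block, residual degrees of freedom were 4 and prior ones 2.44, and the median SE was 0.112. The fit with the replicate block had fewer residual degrees of freedom. The fit was tested on simulated data with independent noise and no effect of the replicate number, unlike these arrays, and no result here rests on that test. Where a gene had several probe sets, the one with the highest mean was used.

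The members and lists were chosen with earlier results of these data known. Named list genes are up to 4 per list by smallest p, plus a few set genes. A listed gene is not reported here. The replicate numbers 1 to 3 occur in each group. Deviations of same-numbered arrays correlated at 0.397, 0.138 and 0.162, all over the limit of 0.1 set for pairing. A fit with the number as a block is therefore given where it matters. No values for arrays of unlike number are given beside these, so passing the limit does not show that the arrays were paired. The alternatives were a median shift, quantile normalization, leaving out dimmer probe sets, trend and robust eBayes, an ordinary linear model, array weights, the block, a threshold of 0.10, probe sets averaged per gene, and each array left out.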

Additional observations from a re-analysis of the deposited data

How the results depend on the processing

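No alternative called any of the 9 genes or any gene of the 3 pathway lists, and the lowest adjusted p of a member in any refit was 0.761. Over all probe sets, 4 calls became 0 with the replicate block, with trend and robust eBayes and with the ordinary linear model, and 0 to 1 with 1 array left out; the cause was not tested beyond fewer samples in the last. Selp, Icam1 and Icam2 kept a lower diabetic mean in every refit. With 1 array left out the differences ran from -0.41 to -0.20 for Selp, -0.57 to -0.0385 for Icam1, -0.34 to -0.13 for Icam2, -0.48 to 0.45 for Vcam1, -0.21 to 0.0353 for Glycam1, -0.15 to 0.0568 for Selplg, -0.056 to 0.11 for Sele, -0.10 to 0.11 for Pecam1 and -0.00431 to 0.13 for Madcam1. Array weights turned the sign of Glycam1 (0.00397) and Pecam1 (-0.0197), and quantile normalization that of Sele (-0.0105). The replicate block changed no call of a member. Each member has 1 probe set, so no other probe set could be tried, and Sele, Vcam1 and Glycam1 have no value once dimmer probe sets are left out. No detection calls were used, so whether these 3 lay above background was not tested.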
